A study of Mus musculus domesticus with 6 samples.

Results

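The 8 long noncoding RNAs described here are Malat1, Neat1, Kcnq1ot1, H19, Meg3, Rian, Pvt1 and Trp53cor1, transcripts that act without encoding a protein. They were taken by symbol, matched to the Ensembl identifier, and all 8 were found among the 55359 entries of each deposited table. The members were chosen from results on expected counts and TPM in these same 6 libraries, so the levels and differences of the 8 are given as a description and support no claim. Each of the 6 libraries came from burst-forming erythroid progenitors (BFU-E), early cells of the red blood cell lineage, of E14.5 mouse fetal liver. Embryos of both groups were Exosc3 fl/fl, homozygous for a floxed gene of an RNA exosome subunit. The 3 Cre- samples carried no Cre. In the 3 Cre+ samples Cre was driven by Vav1, a promoter active across blood cells, so recombination was not limited to erythroid cells. The sort took GFP+ Lin- Kit+ cells with low CD24 and CD71, and the labels do not say how the GFP gate was set for Cre- embryos. The design text gives 3 litters with 2 samples from each, but no label ties a sample to a litter. No label says how many embryos went into a sample.

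Malat1 and Neat1 are neighbouring nuclear RNAs. Malat1 gathers in splicing speckles, and the long form of Neat1 is the scaffold of paraspeckles, nuclear bodies that hold RNA-binding proteins. Kcnq1ot1, H19, Meg3 and Rian come from imprinted domains, where only the paternal copy (Kcnq1ot1) or only the maternal copy (H19, Meg3 and Rian) is transcribed. Kcnq1ot1 silences coding genes on its own chromosome, H19 shares enhancers with the growth factor gene Igf2, and Meg3 and Rian lie between Dlk1 and Dio3. Pvt1 lies beside the Myc gene, and Trp53cor1, also called lincRNA-p21, lies beside Cdkn1a and is a transcriptional target of p53. The RNA exosome degrades RNA from the 3′ end, and it takes many nuclear noncoding RNAs as substrates.

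Malat1 and the long form of Neat1 have no poly(A) tail. Their 3′ ends carry U-rich stretches that fold onto an A-rich tract as a triple helix, a structure known to shield an RNA from 3′ decay. Stretches that hold these 3′ ends are shown. The motif pair below was found in both RNAs and not in the searched models of the other 6. The stretch of Malat1 runs on past the A-rich tract. Both are written 5′ to 3′ as DNA letters from the GENCODE M21 transcript models, with motifs in capitals. The A-rich motif AAAAGCAAAA is the last 10 bases of the long Neat1 model, the U-rich motif TTTTGCTTTT is its reverse complement, and both were searched on the transcript strand only.
Malat1, model Malat1-201, bases 6586 to 6750 of 6983: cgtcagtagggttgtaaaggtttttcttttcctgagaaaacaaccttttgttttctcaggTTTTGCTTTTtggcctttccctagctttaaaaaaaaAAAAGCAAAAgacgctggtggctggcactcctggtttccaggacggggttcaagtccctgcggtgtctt
Neat1, model Neat1-201, bases 20659 to 20771 of 20771: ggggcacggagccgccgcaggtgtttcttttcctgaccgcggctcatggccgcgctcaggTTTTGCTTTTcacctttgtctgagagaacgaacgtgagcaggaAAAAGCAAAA
The U-rich motif was present in 1.08% of the 141767 transcript models of that release. In 4 models the A-rich motif lay in the 100 bases after it, the pair printed above and Retreg3-201 and Retreg3-203. The A-rich match in Neat1 was fixed in advance, since the motif was taken from its end. Kcnq1ot1 held the U-rich motif once in its 93092 bases, without the A-rich motif after it, and the models of H19, Meg3, Rian, Pvt1 and Trp53cor1 held none. A match in letters is a description and does not show a folded structure. Further U-rich bases before the marked motif were left in lower case in both stretches. The motif search used models of an older release, whose identifiers are in the deposited tables with other version numbers. For Rian that release has 20 models, where the deposited tables list 69 transcripts, so the others were not searched.

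Trp53cor1 has several start sites in the same release, and the first 60 bases of the models that matter for the values below are shown because the libraries differed in which model their reads were assigned to.
Trp53cor1-201, bases 1 to 60 of 3218: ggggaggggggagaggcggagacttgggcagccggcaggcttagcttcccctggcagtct
Trp53cor1-207, bases 1 to 60 of 985: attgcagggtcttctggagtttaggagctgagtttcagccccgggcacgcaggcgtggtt
These models differ at the start and then share a stretch of 894 bases. The longer one continues beyond it.

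Total expected counts, the reads that the quantification assigned to genes, ran from 89629949 to 124931215 per library. A gene seen in 1 library only had a median of 107 reads there, so a count near that size may come from 1 captured molecule, and reads were not counted by molecule. Exosc3, the targeted gene, had Cre- levels of 51.9, 44.3 and 48.0 CPM and Cre+ levels of 26.8, 22.1 and 30.2 CPM, a log2 fold change of -0.87 (standard error, SE, 0.22) that did not pass (adjusted p = 0.259, edgeR). CPM is the count scaled to library size and composition, and a gene passed at an adjusted p under 0.05. The sort marker Kit lay at 375 to 426 CPM in Cre- and 334 to 355 CPM in Cre+ libraries, and Cd24a at 72.7 to 134 CPM and 142 to 187 CPM, both without overlap and neither passing. Tfrc, which encodes the sort marker CD71, lay at 170 to 302 CPM in Cre- and 181 to 349 CPM in Cre+ libraries. The groups overlapped for Tfrc (log2 fold change 0.04, SE 0.26). Of erythroid genes, Klf1 lay between 224 and 328 CPM and Gata1 between 83.3 and 128 CPM over all libraries, and Car2 rose from 226 ± 18.8 to 483 ± 67.3 CPM (SD, n = 3 each; adjusted p = 0.00787, edgeR). Of 12 hepatocyte markers 9 were at 0 in all 6 libraries, Afp and Ttr among them.

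Malat1 was by far the most abundant of the 8, and it was higher in every Cre+ library than in any Cre- library. Its level was 2823, 2433 and 2899 CPM in Cre- replicates 1, 2 and 3, and 3204, 3687 and 4132 CPM in Cre+ replicates 1, 2 and 3. The groups did not overlap, and the gap between the highest Cre- and the lowest Cre+ library was small beside the spread within Cre+. The means were 2718 ± 250 and 3675 ± 464 CPM (SD, n = 3 each), a ratio of 1.35, and the log2 fold change was 0.43 with an SE of 0.10. On the TPM scale, which divides by transcript length, Malat1 stood at 540, 409 and 507 in Cre- and at 581, 617 and 692 in Cre+ libraries, so the order of the groups was the same. By TPM it ranked between place 191 and place 321 of all genes in each library. It alone took between 0.246% and 0.410% of all counts in a library.

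Neat1 was scarce in these cells and did not separate the groups. It was measured at 25.5, 13.0 and 10.7 CPM in Cre- and at 11.8, 19.8 and 27.5 CPM in Cre+ libraries. The highest and lowest libraries of both groups lay within 3 CPM of each other. Its log2 fold change was 0.26 with an SE of 0.45, and it was -0.06 without Cre+ replicate 3 and -0.27 when transcript length was taken into account. By mean TPM, Cre+ over Cre- gave a ratio of 0.81, on the other side of 1 from the CPM ratio of 1.20. Per length, its mean TPM over all libraries was 3.08 against 557 for Malat1, although the loci adjoin each other.

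For Neat1 the deposited mean transcript length tells which forms the reads were assigned to. That length was 6233, 8618 and 3784 bases in the Cre- replicates and 6173, 8447 and 9446 bases in the Cre+ replicates. The 3 shorter models have at most 3004 bases, so every library had some abundance assigned to the long model Neat1-201 of 20771 bases, the paraspeckle form. The groups overlapped in this length too.

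**Figure D1:**
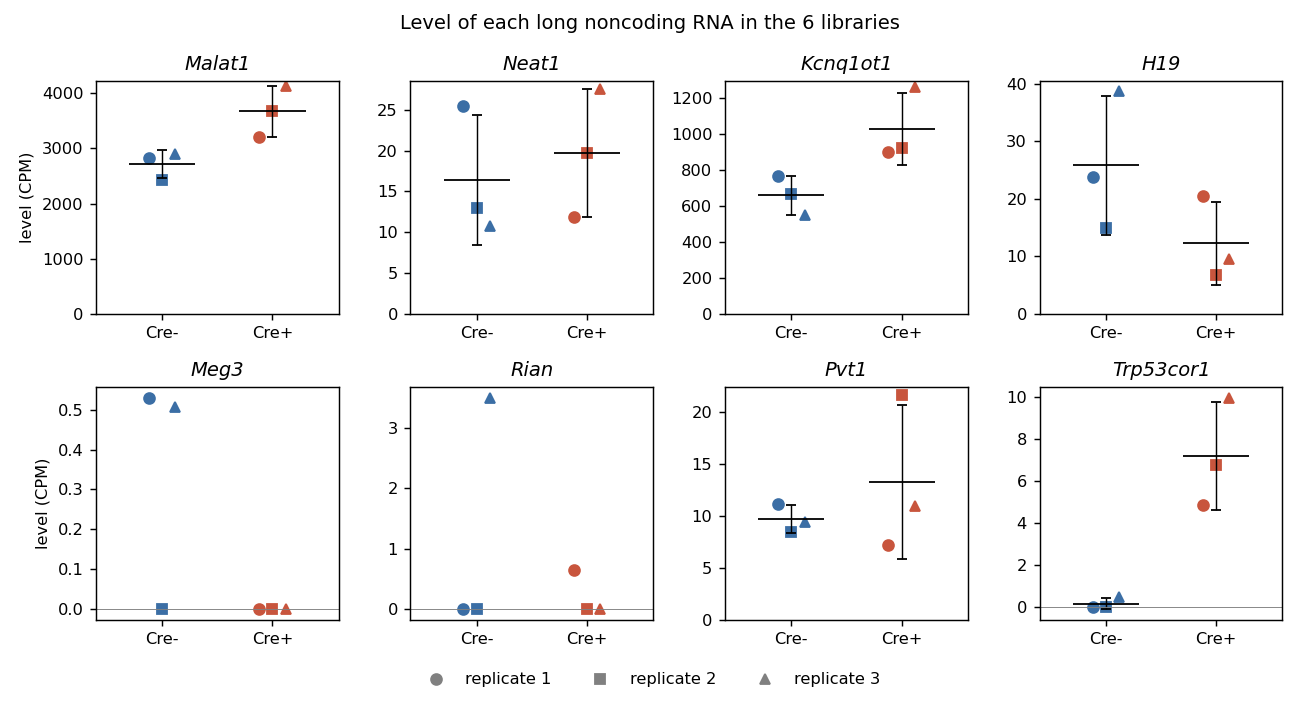
Level of each of the 8 long noncoding RNAs in CPM (vertical axis, own scale per panel, 0 included) in the 3 Cre- (blue) and 3 Cre+ (red) libraries, with symbols for the replicate number; horizontal lines are means and bars are SD, left out for Meg3 and Rian, which were at 0 in 4 libraries each. Malat1, Kcnq1ot1 and Trp53cor1 had every Cre+ library above every Cre- library, and the other panels overlapped.

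Kcnq1ot1, the unspliced silencing RNA of the Kcnq1 domain, gave the second highest read count. Its Cre- levels were 763, 666 and 546 CPM, and its Cre+ levels were 899, 924 and 1258 CPM. All 3 Cre+ libraries lay above all 3 Cre- libraries, and Cre+ replicate 3 was the highest. The means were 658 ± 109 and 1027 ± 200 CPM (SD, n = 3 each), a ratio of 1.56, with a log2 fold change of 0.64 and an SE of 0.15. It has a single model of 93092 bases, so its many reads correspond to a modest level per length. That level was 9.22, 8.03 and 6.84 TPM in Cre- and 10.6, 11.1 and 15.1 TPM in Cre+ libraries. Kcnq1 overlaps Kcnq1ot1 on the opposite strand. The strand setting of the counting is not given in the sources used here, so reads of the overlapping pair cannot be told apart with certainty. The coding gene Kcnq1 was assigned 0 counts in all 6 libraries.

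H19, a maternally expressed RNA of fetal tissues, was the 1 tested member with a negative log2 fold change. It was measured at 23.9, 14.9 and 38.8 CPM in Cre- and at 20.5, 6.75 and 9.60 CPM in Cre+ libraries. The groups overlapped, since Cre+ replicate 1 lay above Cre- replicate 2. The means were 25.9 ± 12.1 and 12.3 ± 7.23 CPM (SD, n = 3 each), with a log2 fold change of -1.08 and an SE of 0.50. It was -1.66 without Cre+ replicate 1, -0.66 without Cre- replicate 3 and -0.37 with length taken into account.

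The assigned forms of H19 differed between libraries. Mean transcript length was 2286, 1810 and 1806 bases in Cre- and 2233, 1020 and 893 bases in Cre+ libraries. The value of Cre- replicate 1 equals the length of the longest of its 7 models, and the shortest means belonged to Cre+ replicates 2 and 3. On the TPM scale, H19 stood at 13.7, 11.3 and 30.6 in Cre- and at 11.7, 10.9 and 19.01 in Cre+ libraries, a ratio of means of 0.750 where CPM gave 0.474.

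Summed levels of neutrophil and monocyte and of lymphoid markers differed between the groups beside H19. In edgeR over all 13117 tested genes without a block, no marker of the lists in this paragraph passed. With the replicate block, Mpo (adjusted p = 0.000868), Flt3 (0.0105) and Hmga2 (0.00632) passed in edgeR. At means of 1000 counts or more, Mpo (adjusted p = 0.0222), Flt3 (0.0318), Hmga2 (0.0278) and Ighm (0.0397) passed in edgeR. DESeq2 called Il7r, Lyz2, Prtn3 and Spi1. All these genes had negative log2 fold changes. The summed level of 12 neutrophil and monocyte markers ran from 576 to 1506 CPM in Cre- and from 230 to 520 CPM in Cre+ libraries, with Mpo the highest and S100a8, S100a9 and Ly6c2 at 0 throughout. That of 10 lymphoid markers ran from 43.2 to 137 CPM and from 3.30 to 10.6 CPM, with Cd3e and Dntt at 0 in all libraries. For 13 stem and multipotent progenitor markers the range was 454 to 804 CPM and 312 to 521 CPM, with an overlap. For 10 megakaryocyte markers it was 52.0 to 88.5 CPM and 62.6 to 100 CPM, with an overlap. Within Cre-, replicate 3 was the highest in H19 and in all these sums. Within Cre+, H19 was highest in replicate 1 and the sums were highest in replicate 3. The summed hepatocyte level was between 2.35 and 8.35 CPM in Cre- and between 0 and 4.95 CPM in Cre+ libraries. That of 15 endothelial and stromal markers was between 37.7 and 67.0 CPM in Cre- and between 19.4 and 49.5 CPM in Cre+ libraries, with an overlap. The part of these cells in the level of H19 was not tested. In sorted bulk samples, fewer cells of a type and less RNA per cell cannot be told apart.

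Meg3 and Rian, maternal RNAs of the Dlk1 to Dio3 domain, were at the edge of detection. Meg3 had 51, 0 and 63 reads in the Cre- replicates and 0 in each Cre+ library, and Rian had 0, 0 and 435 reads in Cre- and 81, 0 and 0 in Cre+ libraries. Neither passed the filter on low counts, so neither was tested. All these counts but the 435 of Rian are below the median of 107 reads of genes seen in 1 library only, and no difference between the groups is read from them. Meg3 also shows how the deposited length acts on TPM. In Cre- replicate 1 its 51 reads were assigned to a model of 695 bases and gave 1.61 TPM, whereas in Cre- replicate 3 its 63 reads were assigned to a model of 14548 bases and gave 0.04 TPM.

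Pvt1, the RNA beside Myc, was similar in both groups apart from 1 library. It was measured at 11.2, 8.49 and 9.43 CPM in Cre- and at 7.25, 21.6 and 11.0 CPM in Cre+ libraries. Cre+ replicate 2 was the highest of all 6 and Cre+ replicate 1 the lowest. The log2 fold change was 0.45 with an SE of 0.50, and it was -0.09 without Cre+ replicate 2. Per length, Pvt1 stood at 20.6, 9.83 and 9.85 TPM in Cre- and at 9.58, 23.8 and 8.84 TPM in Cre+ libraries. Mean transcript length ran from 931 to 1716 bases over the libraries, and the groups overlapped.

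Trp53cor1, the p53-induced RNA beside Cdkn1a, was read in all 3 Cre+ libraries and in 1 Cre- library. It had 0, 0 and 57 reads in the Cre- replicates and 605, 600 and 1150 reads in the Cre+ replicates. These were 0, 0 and 0.459 CPM against 4.87, 6.78 and 9.97 CPM, and the groups did not overlap. The 57 reads lie within the quartiles, 44 and 187, of genes seen in 1 library only. The mean in Cre+ libraries was 7.21 ± 2.58 CPM (SD, n = 3) against a mean of 0.153 CPM in Cre-, a ratio of 47.1. The Cre+ mean was at least 241-fold higher than the Cre- libraries at 0, taking 3 counts in each as the limit. That limit covers counting error of reads only. Since about 107 reads may come from 1 captured molecule, 241-fold is not a lower bound for the level in the cells. The log2 fold change was 5.54 with an SE of 2.12, and it ran from 3.78 with length offsets to 12.6 without Cre- replicate 3. It passed the filter on low counts only through the Cre+ group and therefore had to differ.

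The models that Trp53cor1 reads were assigned to differed as well. In Cre- replicate 3 the deposited mean length was 985 bases, the length of the Trp53cor1-207 model printed above. In Cre+ replicate 2 it was 3218 bases, the length of Trp53cor1-201, and in Cre+ replicates 1 and 3 it was 2376 and 2359 bases. On the TPM scale the levels were 0, 0 and 0.82 in Cre- and 2.59, 2.61 and 5.48 in Cre+ libraries, a ratio of means of 13.0.

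**Figure D2:**
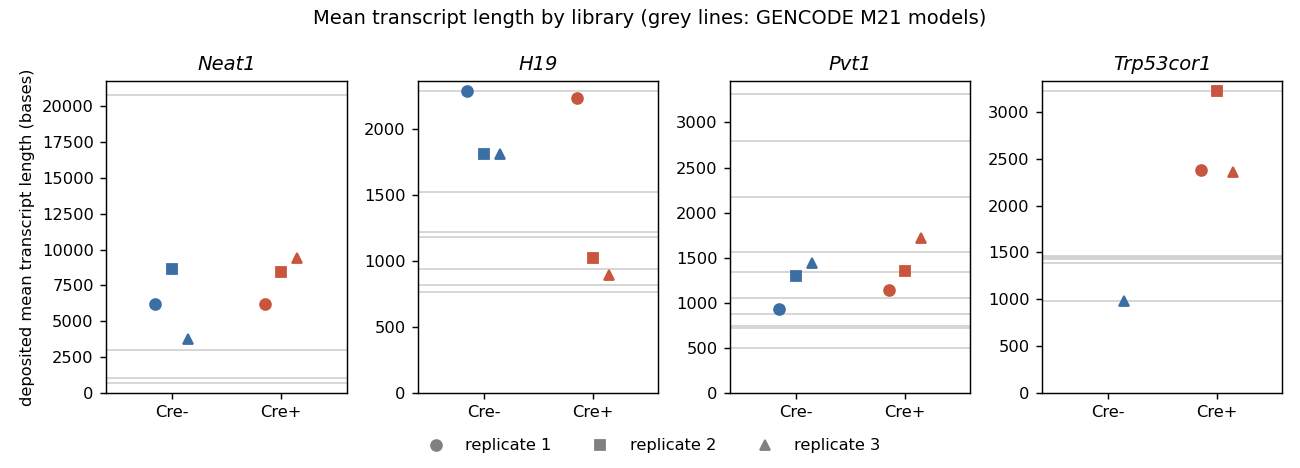
Deposited mean transcript length in bases (vertical axis) of Neat1, H19, Pvt1 and Trp53cor1 in each library with counts above 0, by group (blue Cre-, red Cre+) and replicate symbol; grey lines are the lengths of the GENCODE M21 models. H19 was assigned shorter models in Cre+ replicates 2 and 3 (1020 and 893 bases), and Trp53cor1 had 985 bases in its 1 Cre- library with reads against 2359 to 3218 bases in Cre+ libraries.

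Over the set, 6 of 8 members were tested and 5 had counts in all 6 libraries. The order of mean TPM over all libraries was Malat1 (557), H19 (16.2), Pvt1 (13.7), Kcnq1ot1 (10.1), Neat1 (3.08), Trp53cor1 (1.92), Rian (0.677) and Meg3 (0.275). H19, Pvt1 and Kcnq1ot1 overlapped one another in single libraries, as did Neat1 and Trp53cor1, and Trp53cor1, Rian and Meg3. Of the 6 tested, 5 had a positive log2 fold change, with a median of 0.44 where the median over all 13117 tested genes was -0.01. None of the 6 passed in edgeR, where 0.122% of all tested genes did. At an unadjusted p under 0.05 edgeR gave 8.23% of all tested genes. DESeq2 called 2 of the 6, Malat1 and Trp53cor1, where it called 3.50% of the genes to which it gave an adjusted p (1.81% higher and 1.68% lower in Cre+). When testing was limited to means of 1000 counts or more, edgeR called Malat1 and Kcnq1ot1, where 1.01% of genes passed (0.696% higher and 0.312% lower). With limma-voom no member was called, where 0.152% of genes were. With the replicate number as a block no member was called either, where 0.427% of genes were (0.290% higher and 0.137% lower). Groups did not overlap for 3 members, all with Cre+ higher. That held for 7.53% of all tested genes, for 7.66% in the other direction and for 15.2% in either. Nothing is read from these shares, since the members were chosen with this contrast known.

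**Figure D3:**
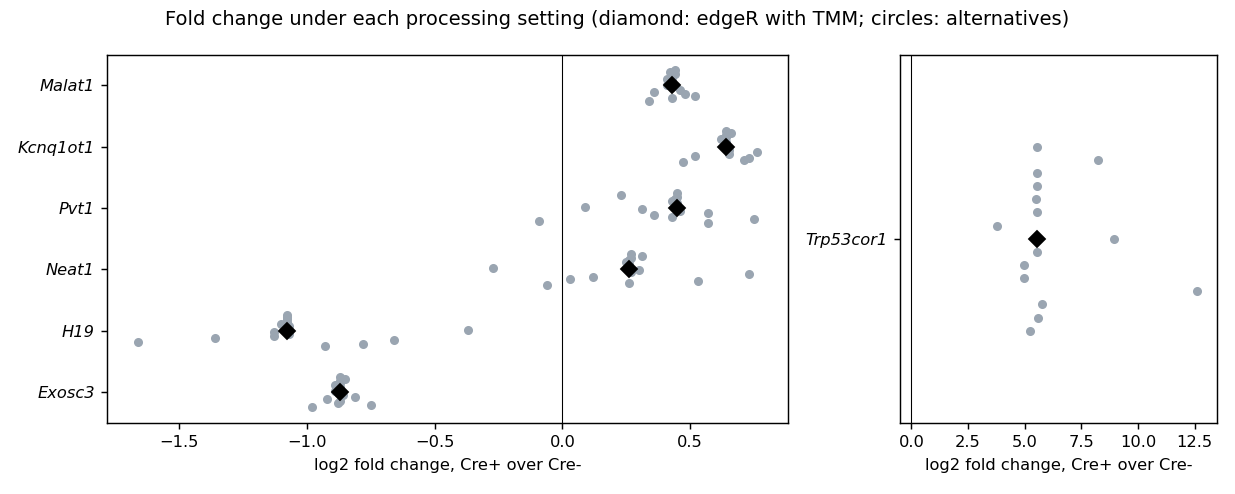
Log2 fold change of Cre+ over Cre- (horizontal axis) for the 6 tested long noncoding RNAs and Exosc3; the diamond is the edgeR value with TMM scaling and the circles are the alternative settings, with Trp53cor1 on an axis of its own. Malat1 (0.34 to 0.52) and Kcnq1ot1 (0.47 to 0.76) stayed above 0 and H19 (-1.66 to -0.37) below 0 in every setting run, whereas Neat1 and Pvt1 fell on both sides.

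The members did not vary as a block. Over the 6 libraries the log2 CPM of Malat1 and Kcnq1ot1 had a Pearson correlation of 0.83, and H19 had negative correlations with the other 4 members present in every library, from -0.73 with Kcnq1ot1 to -0.53 with Neat1. These 6 points include both groups, so a shared group difference enters each value. The genes most like each member were taken among 8337 genes with a mean count of 1000 or more, by Pearson correlation over the same 6 libraries. For Malat1 they were Nktr (0.993), Zfp182 (0.993) and Pcnt (0.986), and 110 genes exceeded 0.9. Neat1 was closest to Elmsan1 (0.994), Ube2g2 (0.982) and Gpr108 (0.979). Kcnq1ot1 was closest to Dph5 (0.995), Ash2l (0.982) and Srsf7 (0.979), and H19 to Zfp764 (0.992), Nrm (0.991) and Sorl1 (0.988). Those closest to Pvt1 were Nceh1 (0.976), Wdr24 (0.973) and Rbm5 (0.971). With so few points, high values arise among many genes, and they are a description only.

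The genes around the members were tested as the surroundings in which these RNAs act. Near Malat1 and Neat1, none of 9 tested genes passed (median log2 fold change -0.10). Frmd8, a gene of this locus, was at 21.1, 16.1 and 30.9 CPM in Cre- and at 30.9, 12.2 and 31.2 CPM in Cre+ libraries, with a log2 fold change of 0.13 (SE 0.41). Malat1 was apart between the groups, and Frmd8 overlapped.

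In the Kcnq1ot1 domain 1 of 7 tested genes passed. Cd81, a tetraspanin of the cell surface at the edge of the domain, rose from 59.6 ± 6.99 to 128 ± 6.48 CPM (SD, n = 3 each; adjusted p = 0.0223, edgeR). It was higher in 3 of 3 Cre+ libraries, and its call was lost without any 1 of the 6 libraries (adjusted p from 0.0645 to 0.159, edgeR) and with length offsets (adjusted p = 0.268). Its log2 fold change of 1.10 was 1.00 to 1.15 without each library and 1.27 with length offsets. Kcnq1, Slc22a18, Phlda2, Tnfrsf23 and Trpm5 had 0 counts in all 6 libraries. Cdkn1c, an imprinted inhibitor of the cell cycle, was low in both groups, at 3.39, 0 and 4.999 CPM in Cre- and 3.70, 6.00 and 2.13 CPM in Cre+ libraries. Nap1l4, a histone chaperone, lay between 175 and 232 CPM in every library with a log2 fold change of 0.00. Osbpl5, a lipid transfer protein gene, had 91, 366 and 515 reads in Cre- and 0 in each Cre+ library. It did not pass in edgeR (adjusted p = 0.259), whereas DESeq2 called it. Osbpl5 passed the filter on low counts only through the Cre- group and had to differ, so nothing is read from that call.

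Around H19, none of 5 tested genes passed in edgeR. DESeq2 called 1 of them, Tnni2, a troponin gene with 92, 660 and 392 reads in Cre- and 0 in each Cre+ library. Tnni2 passed the filter on low counts only through the Cre- group and had to differ, so nothing is read from its call. Igf2, the fetal growth factor that shares enhancers with H19, was nearly absent, with 1.27, 0 and 0.604 CPM in Cre- and 0, 0 and 6.50 CPM in Cre+ libraries. H19 was thus read in all 6 libraries while Igf2 had counts in 3. Lsp1, an actin-binding protein of leukocytes, was at 58.0, 31.7 and 113 CPM in Cre- and at 13.97, 13.46 and 26.6 CPM in Cre+ libraries, with no overlap. Its log2 fold change of -1.91 (SE 0.46) did not pass (adjusted p = 0.234, edgeR). It passed in the edgeR fit with a replicate block (adjusted p = 0.0229) and when testing was limited to means of 1000 counts or more (adjusted p = 0.0318).

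In the Dlk1 to Dio3 domain none of 6 tested genes passed. Dlk1, a paternally expressed membrane protein of immature cells, was at 10.3, 13.8 and 25.7 CPM in Cre- and at 5.99, 5.87 and 11.2 CPM in Cre+ libraries, and the groups overlapped. Dio3 and the noncoding Mirg had 0 counts in all libraries. The retrotransposon-derived Rtl1 had counts in 1 library only. Dlk1 thus had counts in all 6 libraries, where Meg3 and Rian had counts in 2 each.

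Near Pvt1, none of 5 tested genes passed in edgeR. Myc, the growth-promoting transcription factor, was at 337, 367 and 338 CPM in Cre- and at 286, 254 and 231 CPM in Cre+ libraries, without overlap. Its log2 fold change of -0.43 (SE 0.10) had an adjusted p of 0.225 (edgeR), and DESeq2 called it. Pvt1 did not follow this order, since it was highest in Cre+ replicate 2.

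Beside Trp53cor1, 1 of 9 tested genes passed. The gene for the cell cycle inhibitor p21, Cdkn1a, was at 0 in the Cre- group and at 63.0, 56.0 and 56.6 CPM in the Cre+ replicates (adjusted p = 0.000111, edgeR; limma-voom did not call it, adjusted p = 0.178). Like Trp53cor1 it passed the filter on low counts only through the Cre+ group and had to differ. Srsf3, a splicing factor and the coding gene on the other side of Trp53cor1, had a log2 fold change of -0.07 (SE 0.12). Within the Cre+ group, Cdkn1a was highest in replicate 1 and Trp53cor1 in replicate 3.

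**Figure D4:**
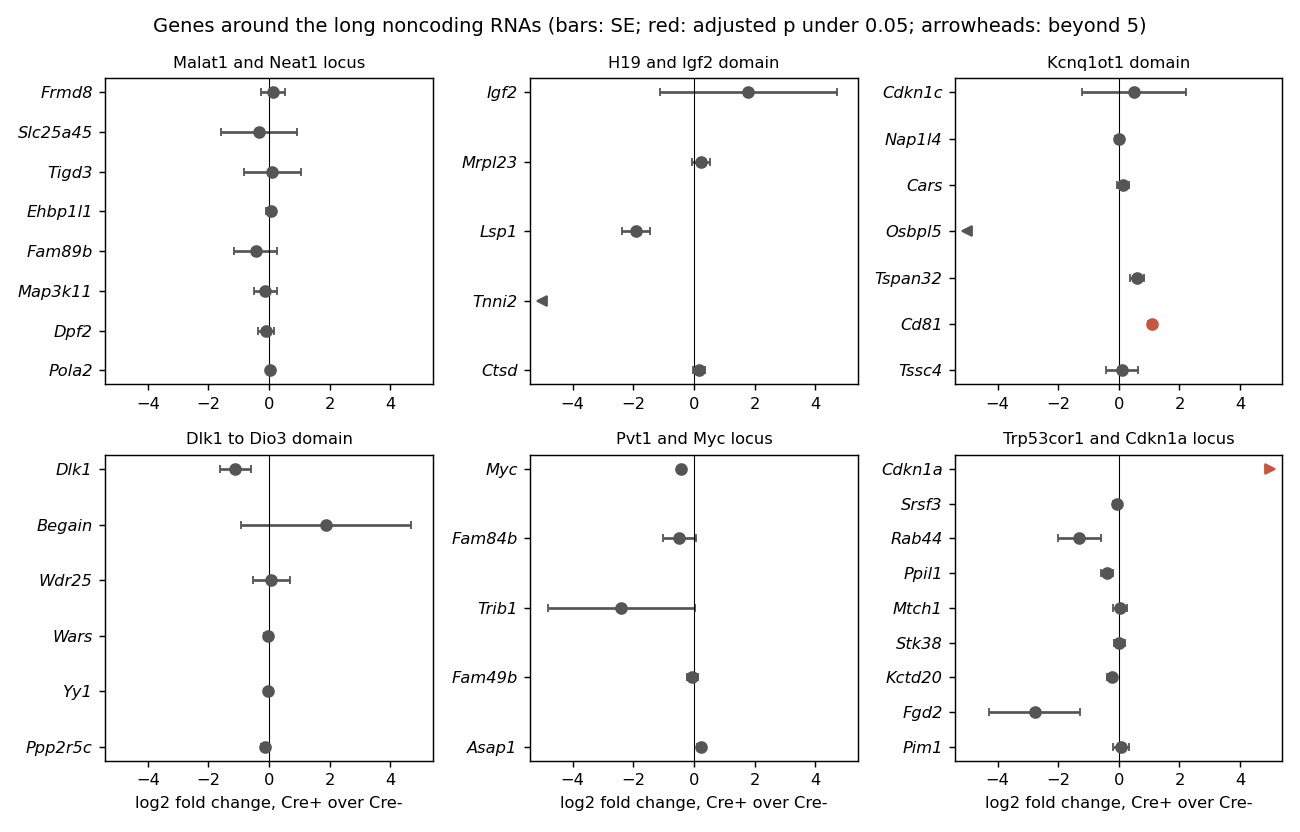
Log2 fold change of Cre+ over Cre- (horizontal axis, bars are SE) for tested genes around the 8 long noncoding RNAs, 1 panel per locus; red marks genes that passed and arrowheads mark values beyond the axis, drawn without SE. Cd81 and Cdkn1a are the genes in red. Genes near Malat1 and Neat1 run from -0.44 (Fam89b, SE 0.72) to 0.13 (Frmd8, SE 0.41), with a median of -0.10.

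Genes for proteins that work with these RNAs were tested next. Of 18 paraspeckle proteins none passed in edgeR, and the median log2 fold change was -0.03. Nono and Sfpq, the paraspeckle core proteins, had values of -0.11 (SE 0.08) and -0.02 (SE 0.08). Pspc1, their relative, was at 159, 170 and 167 CPM in Cre- and at 223, 210 and 211 CPM in Cre+ libraries without overlap (log2 fold change 0.38, SE 0.10, adjusted p = 0.264, edgeR), and DESeq2 called it. Of 18 tested genes for Malat1 processing and nuclear speckles none passed in edgeR, with a median of -0.01. Elac2, which encodes the enzyme that trims tRNA-like 3′ ends, stood at -0.01 (SE 0.15), and Mettl16, which binds the Malat1 triple helix, at -0.03 (SE 0.13).

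Among 13 tested factors that keep or read imprints none passed in edgeR, with a median of -0.08. Setdb1, a histone methyltransferase, had the smallest p of this list (log2 fold change 0.28, SE 0.11, adjusted p = 0.511, edgeR). Among 15 tested genes of the imprinted gene network, none passed in edgeR, DESeq2 called 1 (Igf2r), and the median was 0.05. The growth factor receptor gene Igf2r was at 83.7, 65.7 and 53.0 CPM in Cre- and 122, 126 and 82.5 CPM in Cre+ libraries, with a narrow overlap. Peg3, a paternally expressed zinc finger gene, was at 12.0, 6.91 and 16.3 CPM and at 22.3, 18.2 and 20.4 CPM, with no overlap and an adjusted p of 0.695 (edgeR).

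Other named long noncoding RNAs served for comparison with the 8. Of 14 tested, none passed and the median log2 fold change was 0.09. Xist, the X-inactivation RNA and like Malat1 a nuclear RNA, was at 1491, 1306 and 1636 CPM in Cre- and 1446, 1677 and 1881 CPM in Cre+ libraries, and the groups overlapped (log2 fold change 0.17, SE 0.11). Tug1, a nuclear RNA linked to p53, had a log2 fold change of -0.18 (SE 0.12). Lncpint, another p53-linked RNA, was at 2.25, 3.71 and 6.21 CPM in Cre- and 5.22, 8.97 and 10.7 CPM in Cre+ libraries, with an overlap. Of the other imprinted noncoding RNAs 4 were tested and none passed. Airn, the antisense RNA of Igf2r, had a log2 fold change of 0.46 (SE 0.68). Snhg14 had 27, 47 and 0 reads in Cre- and 195, 327 and 326 reads in Cre+ libraries. Its log2 fold change was 3.47 (SE 2.08, adjusted p = 0.803, edgeR). Snhg14 passed the filter on low counts only through the Cre+ group. Its Cre- counts are below the 107 reads that may come from 1 captured molecule, so nothing is read from this difference.

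Long noncoding genes as a class leaned to higher values in Cre+ libraries. Outside the 8, 573 such genes were tested, none passed in edgeR, and 345 had a positive log2 fold change, with a median of 0.26 against -0.01 over all tested genes. Groups were apart with Cre+ higher for 11.0% and with Cre+ lower for 4.89% of them, where all tested genes gave 7.53% and 7.66%. The 573 spread wider on both sides, with quartiles of -0.48 and 1.09 against -0.32 and 0.28 over all tested genes. A gene with low counts can pass the filter through 1 group only and then had to differ. How many of the 573 did so was not counted. Among the 84 with a mean count of 1000 or more, 57 had a positive value and the median was 0.16. The log2 fold changes of Malat1 and Kcnq1ot1, 0.43 and 0.64, lay above that median, and the upper quartile of the 84 was 0.62. The class was not tested as a set, and the summed level of erythroid markers was also higher in Cre+ in range (2282 to 2943 CPM) than in Cre- libraries (1850 to 2428 CPM), with an overlap.

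**Figure D5:**
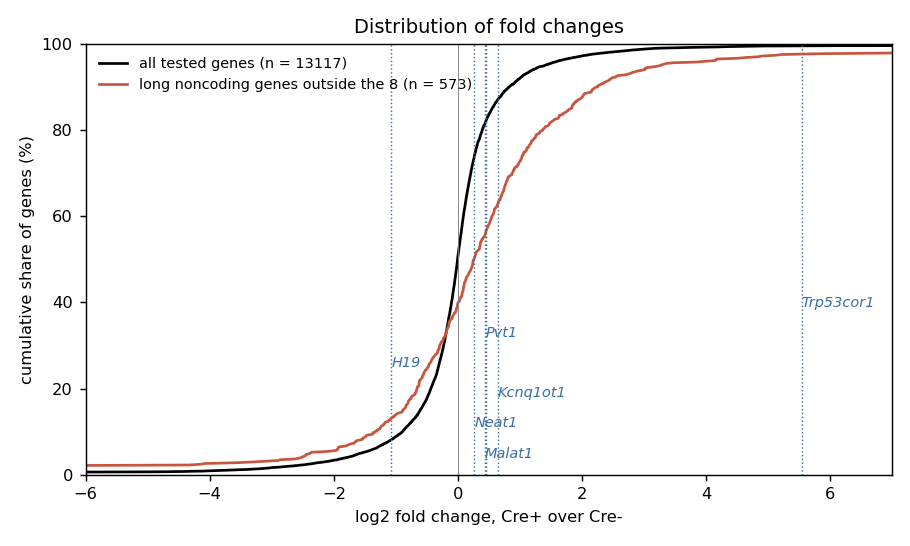
Cumulative share of genes in percent (vertical axis) by log2 fold change of Cre+ over Cre- (horizontal axis) for all 13117 tested genes (black) and for 573 long noncoding genes outside the 8 (red); dotted lines mark the 6 tested members. The red curve lies to the right of the black one above 0 (medians 0.26 and -0.01), and Malat1, Neat1, Kcnq1ot1 and Pvt1 fall between 0.26 and 0.64.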

How the data were processed

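Reads were aligned with STAR 2.5.3a and quantified by RSEM 1.3.0 against GRCm39 (mm39), tools and build being per the submitters' processing notes. No source used here gives a strand setting or annotation release. The library kit was a stranded total RNA kit, per the labels. The deposited tables hold an expected count, TPM and FPKM per gene, beside mean transcript lengths, per the file headers. FPKM was not analysed here. Expected counts were rounded (2.64% were not whole within 0.001). Symbols matched 52081 of 55359 entries. Transcript models, gene classes and neighbours came from GENCODE M21 and RefSeq on GRCm38, so no genome positions are given.

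Genes kept by filterByExpr (13117) were tested with edgeR 4.0.16 in R 4.3.3 (quasi-likelihood, TMM factors of 0.988 to 1.017, Benjamini-Hochberg over all tested genes, threshold 0.05). SE is the size of the log2 fold change over the root of F. The test was checked on simulated counts. Alternatives were DESeq2 1.42.0, limma 3.58.1, other scaling and filters, length offsets, a replicate block and leaving out each library. Members, lists and rules were chosen with earlier results of these data known. All members, Exosc3, tested genes of the locus lists, up to 4 genes with the smallest p of each other list, defining markers at 0 and the 3 genes most like each member could be named. Sfpq, Elac2, Mettl16, Lncpint and Gata1 fall outside this and were chosen after their values were seen. The labels do not say that samples came from separate embryos, so p-values measure only the spread between samples. A tested gene is not reported here.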

Additional observations from a re-analysis of the deposited data

How the results depend on the processing

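The number of genes called higher in Cre+ was 16 in edgeR, and it was 235 with DESeq2, 33 with no filter, 58 when only means of 1000 counts or more were tested, 6 with length offsets and 7 to 15 without each library in turn. The number called lower was 0, and it was 218 with DESeq2, 6 with no filter, 26 at such means and 0 to 3 without each library in turn. The fit with a replicate block called 38 higher and 18 lower, and in it Lsp1 near H19 passed. Same-numbered libraries had deviations from their group means that correlated at 0.062, 0.099 and 0.176 over 8338 genes. Every library correlated best with its own number, a hint from the data and not from the design, so the numbers were not taken as pairs. None of the 6 tested members was called with the block. Malat1, Kcnq1ot1 and H19 kept their sign in every alternative run for them. Trp53cor1 did too, but it passed the filter on low counts only through the Cre+ group and had to differ. The members were chosen with this contrast known, so nothing is read from the kept signs. Neat1 changed sign in 2 of 16 and Pvt1 in 1 of 16. Exosc3 was called by DESeq2 alone (adjusted p = 0.00325). Read counts without molecular identifiers limit the precision for Meg3, Rian and Trp53cor1.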

Other observations

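Long noncoding genes outside the 8 with many reads were more often apart with Cre+ higher than with Cre+ lower. Of the 84 with a mean count of 1000 or more, 18 had all Cre+ libraries above all Cre- libraries and 3 the reverse, 21.4% and 3.57% against 8.68% and 7.69% of all 8338 genes at that level. These genes were singled out after their values were seen, and none passed in edgeR over all tested genes. The gene model Gm42047 was at 740, 663 and 723 CPM in Cre- and at 890, 1514 and 1826 CPM in Cre+ libraries. The gene model 9230114K14Rik was at 1.75, 3.44 and 1.08 CPM and at 14.47, 21.03 and 15.2 CPM, and 2810402E24Rik was at 11.5, 10.5 and 7.61 CPM and at 21.4, 29.4 and 31.7 CPM. Adjusted p in edgeR was 0.183, 0.156 and 0.214 for these genes in that order.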
